A study of Homo sapiens with 11 samples.

Results

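The genes described here are 10 enzymes of lower glycolysis, namely GPI, ALDOA, ALDOC, TPI1, GAPDH, PGK1, PGAM1, ENO1, ENO2 and PKM, out of 60676 genes in the count table. They were chosen by symbol, and all 10 had a row in the table and passed the filter on low counts. RNA was sequenced from RWPE1 cells, an immortalized and non-tumorigenic line of human prostate epithelium, kept in serum-free keratinocyte medium with pituitary extract, EGF, antibiotics and amphotericin. The groups were 3 libraries from normoxia and, from cells moved to hypoxia at 1% oxygen, 3 libraries after 6 h, 3 after 12 h and 2 after 24 h. Hypoxic medium also carried 10 mM HEPES, a pH buffer, so the effects of low oxygen and of the buffer cannot be told apart. RWPE1 is 1 line and the labels do not say whether replicates were separate cultures, so p-values measure the spread between these libraries, which may be technical. The basal epithelial markers KRT5, KRT14, TP63, ITGA6 and CDH3 were all at a CPM (counts scaled to a library of 1000000) of 1 or more in every group, and the summed endothelial and leukocyte markers stayed below 0.51 CPM. The basal sum rose from 8036 to 10872 CPM in normoxia to 16368 to 21030.5 after 24 h, but single basal genes moved in both directions. By the edgeR test used below, KRT14 and ITGA6 were called higher and TP63 and CDH3 lower at all 3 times. At 12 h their log2 fold changes were 1.39, 1.67, −0.95 and −0.75. KRT5 was called higher at 12 h and 24 h. Of 5 luminal markers 3 reached 1 CPM, with KLK3 (prostate-specific antigen) at 0 in all libraries. The luminal sum also moved with hypoxia, from 228 to 259 CPM in normoxia to 1066 to 1798 after 24 h. Of 4 fibroblast markers only COL1A1 reached 1 CPM. The part of these markers in the results was not tested.

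Glycolysis splits glucose into pyruvate and makes ATP without oxygen. Its lower part begins here with the isomerisation of glucose 6-phosphate by GPI. Aldolase then cuts fructose 1,6-bisphosphate into triose phosphates, which TPI1 interconverts. GAPDH and PGK1 carry out the oxidation and the first ATP-yielding step, PGAM1 and enolase rearrange and dehydrate the product, and PKM makes pyruvate and ATP. ALDOA and ALDOC, like ENO1 and ENO2, are isoforms encoded by separate genes. ALDOA and ENO1 are the widespread forms, while ALDOC and ENO2 are best known from brain and neurons. Several of these genes are textbook targets of the hypoxia-inducible factors (HIFs), which bind DNA at the core letters ACGTG or GCGTG.

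The promoter letters are shown because the 10 genes moved together in hypoxia. RefSeq sequence on GRCh38.p14 was found for all 10, in 13 windows of the 250 bases before an annotated start. Both strands were searched, so ACGTG may appear as its reverse complement CACGT, and the palindrome CACGTG counts as 2 overlapping matches. ACGTG was present in 9 of the 13 windows, belonging to 7 of the 10 genes. Of all 35116 promoter windows of this length, 18.5% hold ACGTG, 32.2% hold GCGTG and 43.2% hold either, and 21.7% of 27305 genes have ACGTG in any window. One stretch for each of the 7 genes follows, read 5′ to 3′ along the gene's strand, with ACGTG or its reverse complement in capitals.
GPI: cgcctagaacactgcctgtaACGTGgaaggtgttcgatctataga
ALDOA: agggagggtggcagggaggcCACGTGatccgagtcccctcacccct
ALDOC: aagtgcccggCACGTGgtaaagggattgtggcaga
TPI1: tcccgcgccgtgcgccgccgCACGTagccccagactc
GAPDH: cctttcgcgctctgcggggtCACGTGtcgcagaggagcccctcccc
PGK1: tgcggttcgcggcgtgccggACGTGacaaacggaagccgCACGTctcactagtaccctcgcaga
ENO2: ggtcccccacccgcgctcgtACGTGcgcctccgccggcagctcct
The GPI stretch lies at chr19:34364810-34364854, the ALDOA stretch at chr16:30064365-30064410 and the PGK1 stretch at chrX:78104026-78104089, all on the plus strand. The ALDOC stretch lies at chr17:28577111-28577145 on the minus strand. On the plus strand of chromosome 12 lie the stretches of GAPDH at chr12:6535163-6535208, TPI1 at chr12:6868068-6868104 and ENO2 at chr12:6914442-6914486. The palindrome CACGTG was found for ALDOA, ALDOC and GAPDH, and PGK1 had a pair of separate ACGTG matches whose first lay 202 bases before its start. ENO1 had 2 GCGTG matches and no ACGTG, while PGAM1 and PKM had neither. These matches describe letters in a window, and binding was not measured.

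Counting was by gene, and reads that match several genes limit some of the values. ALDOA is affected most: 89.8% of the bases of its MANE transcript (the reference transcript chosen for each gene) lie in exons of ENSG00000285043, a protein-coding gene on the same strand that is also counted and received 9 to 61 counts per library. That gene had 50, 38 and 61 counts in normoxia, 13, 24 and 35 after 6 h, 27, 29 and 50 after 12 h, and 16 and 9 after 24 h. The ALDOA level is therefore uncertain, and it is not ranked against the other genes. Its fold changes, and its part in values over the whole set, rest on the reads assigned to it. Where reads from the shared exons went was not tested. For PGAM1, 50.1% of 75-base windows occur identically in other genes, including PGAM4, an intronless copy within the PGK1 gene on the other strand, whose count was 20.4 to 23.2% of the PGAM1 count. For TPI1 the share is 16.5%, all in the pseudogene TPI1P1. ALDOC, ENO2 and PKM share no 75-base window with another gene.

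All 10 genes rose at every time point, by edgeR (quasi-likelihood F test, Benjamini-Hochberg over 19981 tested genes). At 6 h, 10 of 10 were called higher (adjusted p under 0.05), where 25.1% of all tested genes were. The same count of 10 was reached at 12 h, against 24.2%, and at 24 h, against 29.9%. None was called lower, where 27.7%, 27.1% and 31.3% of tested genes were at the 3 times. In each comparison the hypoxic libraries of all 10 genes also lay wholly above the normoxic ones, which was so for 33.6%, 34.8% and 33.7% of tested genes. Their median log2 fold change was 1.44 at 6 h, 1.84 at 12 h and 2.31 at 24 h, beside medians of −0.0021, −0.033 and −0.065 over all tested genes. These comparisons share the 3 normoxic libraries.

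The whole set took up a growing share of the sequenced RNA. In normoxia the 10 genes held 0.435% ± 0.021 of all counts (SD, n = 3), after 6 h 0.970% ± 0.080 (n = 3), after 12 h 1.09% ± 0.067 (n = 3) and after 24 h 1.25% ± 0.067 (n = 2). No hypoxic library overlapped the normoxic range of 0.411 to 0.452%. Library totals ran from 27496009 to 49488345 counts, deep enough that the lowest count of any member was 681. The scaling factors (TMM) ranged from 0.539 in 24 h replicate 2 to 1.32 in normoxia, and mitochondrial genes fell from 10.2 to 10.3% of counts in normoxia to 0.369% in 24 h replicate 2. CPM values below use these factors. With library size alone the median rise of the 10 genes was 1.12, 1.38 and 1.35 at the 3 times on the log2 scale. In bulk RNA, fewer cells and less RNA per cell cannot be told apart.

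**Figure D1:**
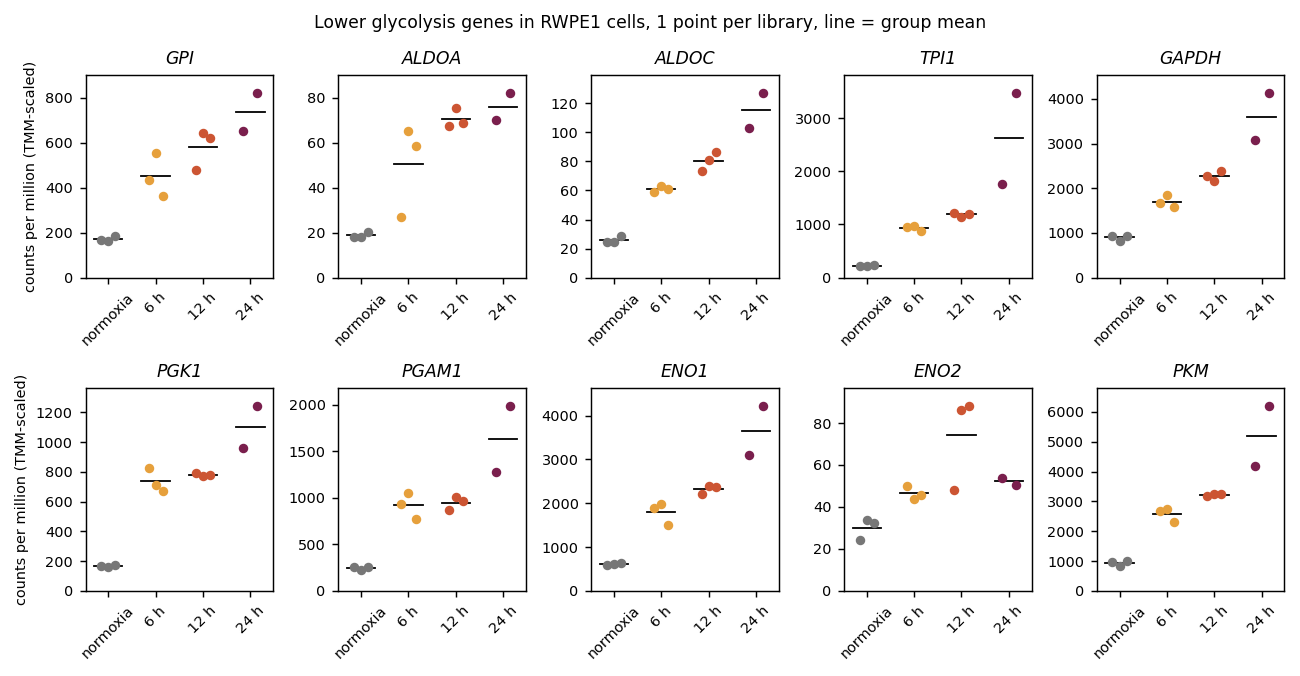
CPM (TMM-scaled, linear axes from 0, each panel with its own scale) of the 10 genes in 11 RWPE1 libraries by time in hypoxia, with 1 point per library and a line at the group mean. Every hypoxic point lies above every normoxic point, the ENO2 mean is highest at 12 h with 1 library near the 6 h and 24 h points, and 24 h replicate 2 stands highest for TPI1 at 3477.

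GPI and the aldolases head this part of the pathway, and all 3 had more than doubled their CPM mean by 6 h in a step that did not reverse later. GPI stood at 168, 161 and 186 CPM in normoxia, at 436, 553 and 364 after 6 h, at 477, 641 and 619 after 12 h and at 653 and 820.1 after 24 h. Its 6 h and 12 h ranges overlapped, and both 24 h libraries were above all of them. The log2 fold change of GPI against normoxia was 1.39 ± 0.19 (SE) at 6 h, 1.75 ± 0.19 at 12 h and 2.10 ± 0.21 at 24 h, the last with adjusted p = 5.65e-06 by edgeR with Benjamini-Hochberg adjustment.

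ALDOA, the aldolase of muscle and most tissues, was measured at 18.2, 18.2 and 20.1 CPM in normoxia, 26.96, 65.3 and 58.7 after 6 h, 67.5, 75.2 and 68.5 after 12 h, and 69.9 and 82.0 after 24 h. Replicate 1 at 6 h was well below its partners and still above normoxia. Without it the 6 h log2 fold change of ALDOA was 1.72 in place of 1.42 ± 0.25 (SE). At 12 h and 24 h it was 1.90 ± 0.25 and 2.01 ± 0.27.

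ALDOC, the brain-type aldolase, had 24.6, 24.6 and 28.4 CPM in normoxia, 59.1, 62.9 and 61.1 after 6 h, 73.1, 81.1 and 86.2 after 12 h, and 103 and 127 after 24 h. None of its groups overlapped another. For ALDOC the log2 fold change was 1.24 ± 0.13 (SE), 1.63 ± 0.13 and 2.15 ± 0.15 at the 3 times, the smallest standard errors among the 10 genes.

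TPI1, which interconverts the triose phosphates, had the largest change of the 10 at 12 h and at 24 h. It rose from 223, 219 and 239 CPM in normoxia to 958, 964 and 880.2 after 6 h, to 1225, 1148 and 1199.9 after 12 h, and to 1768 and 3477 after 24 h. Groups did not overlap, but the 24 h libraries stood far apart. The log2 fold change of TPI1 was 2.04 ± 0.22 (SE) at 6 h, 2.39 ± 0.22 at 12 h and 3.53 ± 0.25 at 24 h (adjusted p = 9.10e-07, edgeR with Benjamini-Hochberg adjustment). Without 24 h replicate 2 the last value was 2.94, a fold change lower by 1.503 times.

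GAPDH, the dehydrogenase often used as a reference gene, had the highest mean of the 10 per length in every group and rose less than most. Its CPM values were 925, 829 and 941 in normoxia, 1667, 1839.7 and 1588 after 6 h, 2284, 2173 and 2387 after 12 h, and 3079 and 4134 after 24 h. Groups did not overlap at any step. The log2 fold change of GAPDH was 0.92 ± 0.18 (SE), 1.34 ± 0.18 and 2.005 ± 0.19 at the 3 times, with adjusted p = 0.000848 at 6 h by edgeR with Benjamini-Hochberg adjustment.

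PGK1, the kinase of the first ATP-yielding step, had the largest change of the 10 at 6 h. It was at 167, 163 and 173 CPM in normoxia, 827, 714 and 670.2 after 6 h, 791, 770.1 and 777 after 12 h, and 962 and 1241 after 24 h. The 6 h and 12 h ranges overlapped and the 24 h libraries were above both. Its log2 fold change was 2.14 ± 0.16 (SE), 2.22 ± 0.16 and 2.72 ± 0.17, with adjusted p = 1.21e-06 at 6 h by edgeR with Benjamini-Hochberg adjustment.

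PGAM1, the mutase that moves the phosphate group, had CPM values of 254, 220.2 and 257 in normoxia, 938, 1050.1 and 774 after 6 h, 869, 1011 and 965 after 12 h, and 1274 and 1984 after 24 h. The 6 h and 12 h libraries overlapped here too. The log2 fold change of PGAM1 was 1.92 ± 0.20 (SE), 1.96 ± 0.20 and 2.74 ± 0.22. PGAM4, with which it shares sequence, was called higher as well, with log2 fold changes of 1.89, 1.84 and 2.69, and how many of its reads came from PGAM1 was not tested.

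ENO1, the widespread enolase, was at 599, 609.6 and 625 CPM in normoxia, 1886, 1978 and 1512 after 6 h, 2216, 2390.1 and 2374 after 12 h, and 3092 and 4212 after 24 h. No pair of its groups overlapped. Its log2 fold change was 1.55 ± 0.18 (SE), 1.93 ± 0.19 and 2.58 ± 0.20 at the 3 times.

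ENO2, the neuronal enolase, was the exception of the set, with the smallest rise at each time point. Its mean was highest at 12 h, but neither 12 h against 6 h nor 24 h against 12 h was called, and the ranges overlapped in both. It stood at 24.3, 33.6 and 32.3 CPM in normoxia, 50.0, 43.8 and 45.6 after 6 h, 48.1, 86.3 and 88.0 after 12 h, and 53.7 and 50.7 after 24 h. Replicate 1 at 12 h lay among the 6 h libraries, and the other two were the highest of all 11. The log2 fold change of ENO2 was 0.63 ± 0.21 (SE) at 6 h, 1.30 ± 0.21 at 12 h and 0.80 ± 0.23 at 24 h. The adjusted p-values of ENO2 were 0.0229, 0.000332 and 0.00967 by edgeR with Benjamini-Hochberg adjustment. Its 6 h call was lost without normoxia replicate 1 (adjusted p = 0.107, edgeR) or 6 h replicate 1 (adjusted p = 0.0689, edgeR), and with library size alone, where the 6 h value was 0.31 and the 24 h value turned to −0.11. The 24 h call was also lost under limma-voom with sample quality weights (adjusted p = 0.167).

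PKM, the pyruvate kinase gene, had the most counts of the 10, and its splice forms M1 and M2 are pooled in a gene count. It was at 958, 832 and 1010.1 CPM in normoxia, 2684, 2743 and 2293 after 6 h, 3168, 3231 and 3263 after 12 h, and 4196 and 6188 after 24 h. Groups were fully separated. PKM had log2 fold changes of 1.46 ± 0.20 (SE), 1.79 ± 0.20 and 2.48 ± 0.22.

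**Figure D2:**
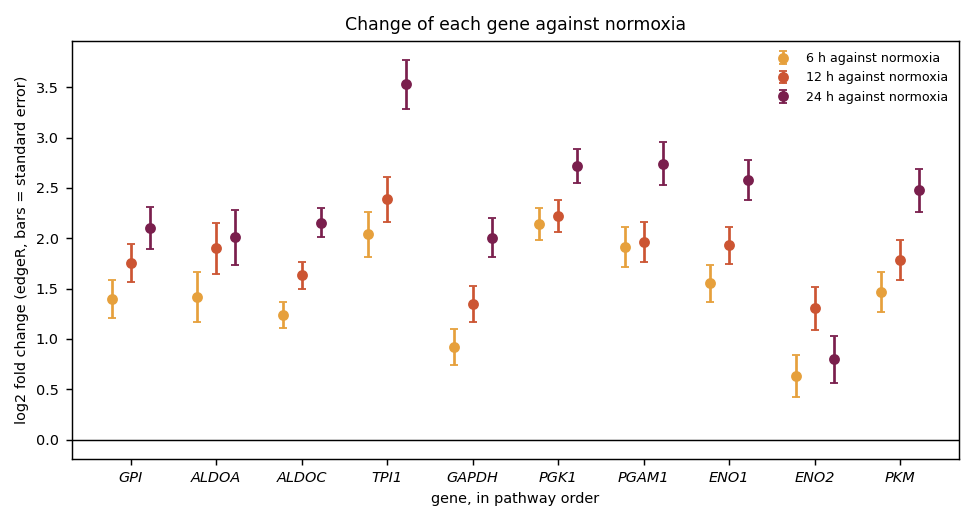
Log2 fold change against normoxia (vertical axis, edgeR, bars of 1 standard error) for the 10 genes in pathway order at 6, 12 and 24 h. All points lie above 0, TPI1 reaches 3.53 at 24 h, and ENO2 is the one gene with a lower point at 24 h (0.80) than at 12 h (1.30).

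The isoforms of enolase were compared as a ratio within each library, where scaling between libraries cancels. Per transcript length, ENO2 made up 3.06, 4.10 and 3.86% of ENO1 and ENO2 together in normoxia, 2.02, 1.69 and 2.29% after 6 h, 1.66, 2.73 and 2.80% after 12 h, and 1.33 and 0.926% after 24 h. Every hypoxic library had a lower ENO2 share than every normoxic one. The mean log2 ratio of ENO2 to ENO1 was −4.72 ± 0.23 in normoxia (SD, n = 3) and −5.75 ± 0.55 in hypoxia (n = 8), a difference of −1.03. An exact two-sided permutation test gave p = 0.0121 for this difference, the smallest p that 8 against 3 libraries can give, and adjusted for the 2 isoform ratios tested it was 0.0242. Leaving out normoxia replicate 1, 2 or 3 gave the smallest p of 8 against 2 libraries, 0.0444, which is 0.0889 after the same adjustment (exact permutation test). Within single time points the differences from normoxia were −0.90, −0.66 and −1.75, where exact tests cannot give p below 0.1 with 3 against 3 libraries or 0.2 with 2 against 3. Both isoforms rose in CPM, and ENO1 by more.

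The aldolase pair was compared in the same way. By the deposited counts ALDOC made up 57.9, 58.1 and 59.0% of the pair per length in normoxia, 69.1, 49.5 and 51.5% after 6 h, 52.5, 52.4 and 56.2% after 12 h, and 60.1 and 61.3% after 24 h. Hypoxic libraries lay on both sides of the normoxic ones, and the share of 69.1% belongs to 6 h replicate 1, the library with the low ALDOA count. The log2 ratio of ALDOC to ALDOA differed by −0.096 between hypoxia and normoxia (exact two-sided permutation test, p = 0.655, n = 8 and 3). This does not show that the balance was equal, and the shared exons of ALDOA make the level of the split uncertain.

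**Figure D3:**
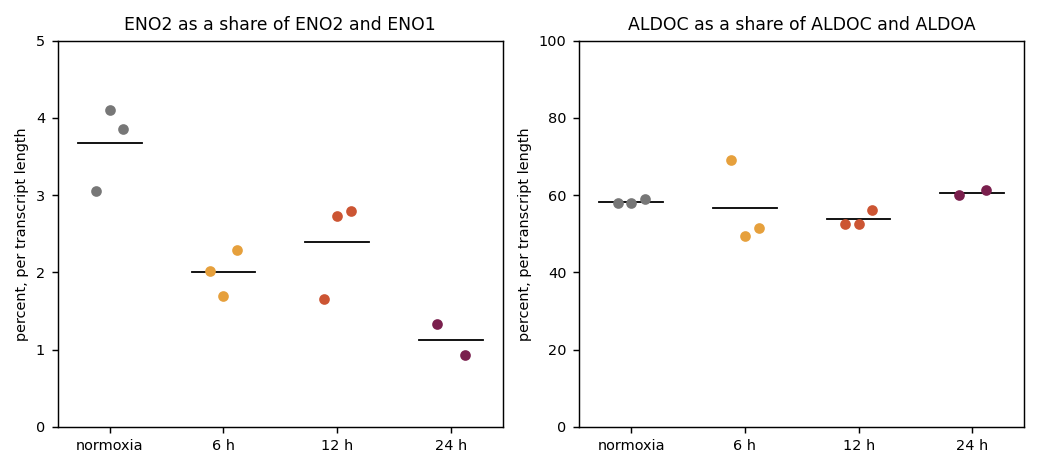
Share of ENO2 in the enolase pair (left, axis from 0 to 5%) and of ALDOC in the aldolase pair (right, axis from 0 to 100%), per transcript length, in each library, with a line at the group mean. The ENO2 share falls from a mean of 3.67% in normoxia to 1.999, 2.39 and 1.13% at 6, 12 and 24 h, while the ALDOC share lies on both sides of its normoxic mean of 58.3%.

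The balance among the 10 genes changed. For each library, log2 counts were taken relative to their mean over the 10 genes, which again removes library scaling. In this measure a gain by some of the 10 genes is always matched by a loss in others. TPI1, PGK1 and PGAM1 were above their normoxic range at all 3 times in every library. GAPDH, ALDOC and ENO2 were below it at all 3 times. The margin was small for PGAM1 at 12 h, with a lowest value of 0.703 against a normoxic highest of 0.691. The shift from normoxia for TPI1 was 0.58 at 6 h, 0.57 at 12 h and 1.16 at 24 h on the log2 scale. For GAPDH it was −0.54, −0.47 and −0.30, and for ENO2 −0.82, −0.55 and −1.48. PKM and GPI shifted little, between −0.20 and 0.16, but at 24 h GPI was below its normoxic range and PKM above it. The ALDOC shifts were of similar size, at −0.22, −0.19 and −0.14.

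**Figure D4:**
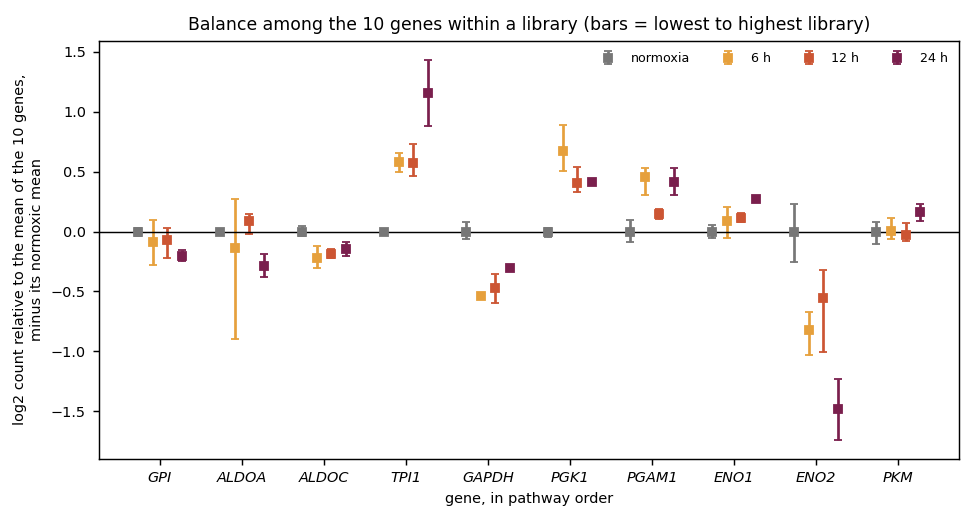
Log2 count of each gene relative to the mean of the 10 genes in the same library, minus its normoxic mean (vertical axis), as group means with bars from the lowest to the highest library. TPI1, PGK1 and PGAM1 sit above 0 at every hypoxic time, and GAPDH, ALDOC and ENO2 below it.

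A pair of neighbouring steps shows the size of this shift. Per kilobase of transcript, GAPDH exceeded TPI1 by 4.15 ± 0.19 times in normoxia (SD, n = 3), 1.91 ± 0.089 times after 6 h (n = 3), 2.01 ± 0.069 times after 12 h (n = 3) and 1.54 ± 0.41 times after 24 h (n = 2). The lowest normoxic ratio was 3.97 and the highest hypoxic ratio 2.09. Both genes lie on the short arm of chromosome 12, where TPI1 starts 328745 bases after the end of GAPDH and ENO2 starts 42797 bases after the end of TPI1. These 3 neighbours hold the largest 24 h rise of the set and the smallest.

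Levels between genes were compared in CPM per kilobase of the MANE transcript. In normoxia the order was GAPDH (699), PKM (405), ENO1 (343), TPI1 (168), PGAM1 (135), GPI (41.6), PGK1 (34.8), ALDOC (16.1) and ENO2 (13.1), with ALDOA left out. No neighbours in this order overlapped. In hypoxia PGK1 passed GPI, with 153 against 109 CPM per kilobase at 6 h and no overlap in any hypoxic group. ENO2 had the lowest mean of these genes in every group. At 24 h the ranges of the upper 4, GAPDH (2807), PKM (2252), ENO1 (2051) and TPI1 (1941), overlapped from each neighbour to the next. Within a library, GAPDH was above PKM and PKM above ENO1 in 2 of 2, and ENO1 above TPI1 in 1 of 2. With exonic length over all transcripts, an alternative chosen after seeing the data, the normoxic order correlated with this one at a Spearman rho of 0.964 across all 10 genes, ALDOA included, with ENO1 above PKM, PGAM1 above TPI1 and PGK1 above GPI already in normoxia.

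By step, the summed enolases stood at 356 ± 9.2 CPM per kilobase in normoxia (SD, n = 3), 1026 ± 139 after 6 h (n = 3), 1339 ± 64 after 12 h (n = 3) and 2073 ± 443 after 24 h (n = 2), nearly all of it ENO1.

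**Figure D5:**
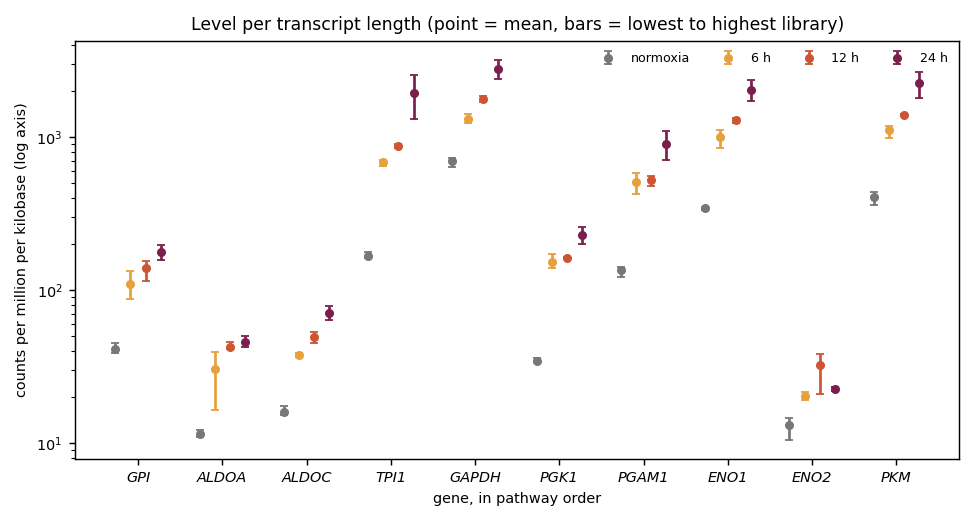
CPM per kilobase of transcript (log axis) of the 10 genes in pathway order, as group means with bars from the lowest to the highest library. The GAPDH mean is highest in all 4 groups, the ALDOA level is uncertain because of shared exons, and PGK1 lies below GPI in normoxia and above it in hypoxia.

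Between hypoxic times the change was smaller. From 6 h to 12 h 0 members were called by edgeR with Benjamini-Hochberg adjustment, where 1.88% of all tested genes were called higher and 3.07% lower. The log2 fold changes of the 10 genes all lay above 0, between 0.042 for PGAM1 and 0.67 for ENO2, and 6 of the 10 did not overlap between the groups, against 15.9% of tested genes. GAPDH, ENO2 and ALDOC had an unadjusted p under 0.05, and limma-voom and DESeq2 also called 0. Where a library was left out, the share of all tested genes called is not given. A change in count may therefore not be particular to the members, which was not tested. The count rose to 5 without 24 h replicate 1 or without 24 h replicate 2, whose spread enters the shared fit, and to 1 without 12 h replicate 1.

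From 12 h to 24 h, 7 of the 10 were called higher, against 15.1% of tested genes, and 0 lower, against 13.3%. TPI1 had the largest value at 1.14 ± 0.23 (SE) with adjusted p = 0.00517, edgeR with Benjamini-Hochberg adjustment. PGAM1 (0.78), PKM (0.69), GAPDH (0.66), ENO1 (0.65), ALDOC (0.52) and PGK1 (0.50) were the others called. ALDOA (0.11), GPI (0.35) and ENO2 (−0.51) were not. This count rests on few libraries. For the fits that follow, the share of all tested genes called is not given. Whether a change in count was particular to the members was not tested. Leaving out 24 h replicate 2 brought it to 1, leaving out 12 h replicate 1, 2 or 3 to 3, 2 or 2, and leaving out normoxia replicate 1 or 3 to 4. With library size alone it was 1, and when the fit held only these groups it was 0. Of all genes called with library size alone 15.5% were higher, against 53.3% in the reported fit. Without 24 h replicate 2 the values themselves fell to 0.56 for TPI1, 0.41 for PGAM1, 0.37 for PKM, 0.42 for GAPDH, 0.40 for ENO1, 0.35 for ALDOC and 0.29 for PGK1, and TPI1 was the gene still called.

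From 6 h to 24 h, 8 were called higher, against 22.1% of tested genes, and 0 lower, against 20.3%. ENO2 (0.17) and ALDOA (0.59) were the members not called. TPI1 again changed most, by 1.49 ± 0.24 (SE, adjusted p = 0.000466, edgeR with Benjamini-Hochberg adjustment). Without 24 h replicate 2 the values of TPI1, PGAM1 and PGK1 were 0.92, 0.47 and 0.38 in place of 1.49, 0.82 and 0.58. PGAM1 was then not called (adjusted p = 0.0543, edgeR), and neither was GPI (0.53, adjusted p = 0.0704, edgeR). With library size alone the count was 2 and PGK1 turned to −0.055. Of all genes then called 14.7% were higher, against 52.2% in the reported fit.

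Gene length moved with the libraries. In a smooth fit, genes of 1 kb stood 0.902 above genes of 10 kb in 24 h replicate 2 and 0.302 above them in 24 h replicate 1, but 0.216 to 0.257 below them in normoxia (log2 scale, relative to each gene's mean). The differences were −0.232, −0.040 and −0.0023 after 6 h and 0.065, −0.053 and −0.036 after 12 h. With an offset for exonic length, chosen after seeing the data, all 10 genes were still called higher at each time against normoxia. Their median was then 1.55, 1.96 and 2.65, and 8 were called from 12 h to 24 h.

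Among further paralogs of the same steps, GAPDHS, PGK2, PGAM2, ENO4 and PKLR did not pass the filter on low counts, with at most 11 counts in a library. ENO3, the muscle enolase, fell at all 3 times, with log2 fold changes of −0.64, −0.42 and −0.49 from a normoxic 7.51, 7.12 and 8.22 CPM. The enolase isoforms thus moved in both directions.

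The rest of the pathway was counted from fixed lists. Among upper glycolysis, glucose and lactate transport, 16 of 18 genes were tested, and 10, 11 and 12 were called higher and 3, 0 and 1 lower at 6, 12 and 24 h. LDHA, which reduces pyruvate to lactate, rose by 3.16, 3.42 and 3.86 on the log2 scale, more than any of the 10 lower enzymes. Of the phosphofructokinase subunits, PFKL and PFKM were called lower at 6 h with −0.36 and −0.41 and were not called at 12 h (−0.096 and −0.21) or 24 h (−0.14 and −0.17). PFKP, the other subunit, named after its values were seen, was called higher at all 3 times with 0.92, 1.41 and 1.55. The median of this list was 1.16, 1.37 and 1.64, below the medians of the 10 enzymes given above.

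Among 17 genes of branches off lower glycolysis, 9, 8 and 11 were called higher and 3, 2 and 4 lower. TKT, the transketolase of the pentose phosphate pathway, rose by 0.62, 1.12 and 1.94 on the log2 scale. PHGDH, which oxidises 3-phosphoglycerate as the entry to serine synthesis, was called higher at 24 h (0.80) and not at 6 h (−0.031) or 12 h (0.27). PSAT1, the aminotransferase of the next reaction, fell by 0.83, 1.38 and 1.71. Of 6 gluconeogenesis genes 2 were tested, and PCK2 was called lower at all 3 times. The list medians at 24 h were 0.68 for the branches and −0.13 for gluconeogenesis.

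GAPDH and PGK1 serve as reference genes in quantitative PCR, so their changes were set beside 12 other genes used in that way. PGK1 changed more than all 12 at each time. GAPDH changed more than 11, 12 and 10 of them at 6, 12 and 24 h, exceeded by PPIA at 6 h and by RPLP0 and PPIA at 24 h. The 12 genes themselves had median log2 fold changes of 0.28, 0.22 and 0.77, with 4, 5 and 7 called higher and 1, 2 and 1 lower.

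Processed pseudogenes named for the 10 genes numbered 95 in the annotation, of which 78 had at least 1 count and 27 passed the filter. Together they held 2.12 to 3.64% of the counts of their parent genes. TPI1P1, TPI1P3 and GAPDHP1 had the highest mean counts. TPI1P1 was at 13.1 to 13.5% of the TPI1 count in normoxia, 13.4 to 16.5% after 6 h, 15.2 to 16.1% after 12 h and 13.7 to 14.3% after 24 h. Its count thus moved with that of TPI1, and how many of its reads came from TPI1 was not tested.

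The genes whose course was closest to the mean of the 10 enzymes were found among 8265 protein-coding genes of at least 10 CPM outside the lists, by root-mean-square distance in log2 CPM over the 11 libraries. They were PITPNC1 (0.136), NSDHL (0.139), PHB1 (0.144), TIMP1 (0.150) and DHCR7 (0.157). Of the enzymes themselves, PKM (0.101), GPI (0.144) and ENO1 (0.151) lay closest to that mean and ENO2 (0.851) and TPI1 (0.666) farthest. The mean course they share is 1.46, 1.82 and 2.29 above normoxia at 6, 12 and 24 h on the log2 scale.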

How the data were processed

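Per the labels and the methods, the authors trimmed single-end reads of stranded, DNase-treated RNA libraries (75 cycles, 1 batch) with Trimmomatic, aligned them with STAR to GRCh38 and deposited raw featureCounts counts per Ensembl gene. The strand setting and the treatment of multi-mapping reads are not given in the sources used here. Of the 24 h triplicate, 1 library was not analysed here. Symbols, exons and transcripts came from GENCODE release 44.

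From these counts, filterByExpr (minimum count 10, minimum total 15) kept 19981 genes. TMM factors, edgeR's quasi-likelihood fit of time-point means in all 11 libraries and Benjamini-Hochberg adjustment over tested genes followed, with a threshold of 0.05. A standard error is the absolute log2 fold change over the root of F. Isoform ratios had 0.5 counts added and exact two-sided permutation tests.

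All 10 members were named. List examples were the called genes of highest mean CPM, pseudogenes the 3 of highest count, and like genes the 5 nearest. Members and lists were chosen with earlier results of these data known. The main fit did not pair libraries by replicate number, and whether the numbers mark pairs is not known. Same-group libraries differed beyond sampling noise, with a chi-square per gene of 3.20 to 11.7 in normoxia. It was 35.5 to 74.6 after 6 h, 23.6 to 60.5 after 12 h and 287 for the pair of 24 h libraries. Alternatives exchanged the test, scaling, filter, libraries and block, and added a loess offset on exonic length (span 0.5) after the data were seen. The scripts were tested on simulated data. Python 3.11.15 was used with matplotlib 3.10.9, scipy 1.17.1, pandas 2.3.3 and numpy 2.4.6, and R 4.3.3 with DESeq2 1.42.0, limma 3.58.1 and edgeR 4.0.16.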

Additional observations from a re-analysis of the deposited data

Results flagged for a closer look

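Members whose level differed between hypoxic times, by the edgeR test of that difference with Benjamini-Hochberg adjustment, are given here as log2 fold changes. From 12 h to 24 h the values were 0.65 for ENO1, 0.50 for PGK1, 0.78 for PGAM1, 0.66 for GAPDH, 1.14 for TPI1, 0.69 for PKM and 0.52 for ALDOC. From 6 h to 24 h they were 1.03 for ENO1, 0.58 for PGK1, 0.82 for PGAM1, 1.09 for GAPDH, 1.49 for TPI1, 1.01 for PKM, 0.92 for ALDOC and 0.71 for GPI. The 24 h group holds 2 libraries, and replicate 2 was the higher of them in TMM-scaled CPM for all of these genes. Its scaling factor was 0.539, against 0.851 in replicate 1. As a share of unscaled counts the members together stood lower in replicate 2, at 1.20% against 1.30%. TPI1 alone had a higher unscaled share there, with 63792 of 34067399 counts in replicate 2 against 41329 of 27496009 in replicate 1. How much of the difference between the replicates comes from scaling was not tested. Groups of 2 or 3 libraries were too small for a test of single outlying libraries.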

How the results depend on the processing

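Against normoxia, 645 of 650 alternative values of the 10 genes kept their direction and their side of the threshold. The other 5 were all ENO2, which with library size alone was 0.31 at 6 h and −0.11 at 24 h. Between hypoxic times 530 of 640 did so, 72 lost a call, 27 gained one and 11 turned sign. The ENO2 to ENO1 difference lay between −1.16 and −0.78 under 15 alternatives, with unadjusted exact permutation p from 0.0121 to 0.0444. Adjusted over the 2 ratios, p was 0.0889 without normoxia replicate 1, 2 or 3 and 0.0833 with permutation within the replicate block, each the smallest p its design allows, and under 0.05 otherwise. The ALDOC to ALDOA ratio did not pass under any of them.

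From 6 h to 12 h the count of members called higher was 0 in the reported fit, 5 with quality weights, 1 with no filter, 1 with only the groups compared, 4 without the 24 h group, and 0 to 5 leaving out a library. From 12 h to 24 h it was 7, and 1 with quality weights, 1 with library size alone, 3 with no filter, 0 with only the groups compared, 3 with the replicate block and 1 to 7 leaving out a library, while members called lower were 0, and 1 with library size alone, 1 with no filter and 0 to 1 leaving out a library. From 6 h to 24 h it was 8, and 5 with quality weights, 2 with library size alone and 3 with only the groups compared. Of all genes called with library size alone, 15.5% were higher from 12 h to 24 h and 14.7% from 6 h to 24 h. In the reported fit these were 53.3% and 52.2%. For the other settings the share of all tested genes called is not given. Whether a change in count was particular to the members was not tested.

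Signs turned with library size alone for PGK1 (−0.068) and PGAM1 (−0.10) from 6 h to 12 h, for GPI (−0.14) and ALDOA (−0.36) from 12 h to 24 h, and for ALDOA (−0.026), PGK1 (−0.055) and ENO2 (−0.42) from 6 h to 24 h. PGAM1 from 6 h to 12 h was −0.0052 with the offset for gene length and −0.069 to 0.15 leaving out a library (−0.012 without 12 h replicate 2, −0.069 without 6 h replicate 3), and ALDOA from 12 h to 24 h was −0.025 to 0.19 (−0.025 without 24 h replicate 2). The cause was not tested.

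Same-numbered libraries showed no clear shared deviation (correlations from −0.16 to 0.21, 2 of 15 pairs over 0.1). Libraries of different number ran from −0.27 to 0.28. With so few libraries per group this check cannot exclude pairing. The replicate block moved no other count of members by over 1.5 times. Counts of members called higher against normoxia were 9 or 10 under every alternative.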
